A study of Mus musculus with 87 samples.

Results

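The genes of polyamine metabolism described here were Odc1, Amd1, Srm, Sms, Sat1, Azin1, Oaz1 and Oaz2, that is 8 of the 37991 genes with a value in the series. They were chosen by name from their roles in the pathway and not by a rule on their levels, although earlier results of these data were known. Each symbol matched a single gene. Polyamines are small, positively charged molecules that bind nucleic acids and that dividing cells need. Ornithine decarboxylase (Odc1) makes putrescine, S-adenosylmethionine decarboxylase (Amd1) supplies the aminopropyl donor, and spermidine synthase (Srm) and spermine synthase (Sms) use that donor to lengthen putrescine to spermidine and then to spermine. Spermidine/spermine N1-acetyltransferase (Sat1) acetylates the higher polyamines for breakdown and export. Antizymes (Oaz1, Oaz2) bind the Odc1 protein, block it and bring it to the proteasome, and the antizyme inhibitor (Azin1), an inactive relative of Odc1, draws antizyme away from it. Ornithine decarboxylase is a classic early-response enzyme of the regenerating liver, and much of the control of this pathway acts on translation and protein stability, which RNA levels do not report.

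Poly(A)-selected RNA of individual livers of male C57BL/6 mice was sequenced after partial hepatectomy (PH, X groups), after sham surgery (S groups) and without surgery (C groups). The mice were entrained to light, dark and night-time feeding cycles. All groups are labelled as 12 to 14 weeks old, which by the study's methods is the age at surgery. The X1W and X4W livers were thus taken at a later age. Group names give hours, or weeks with W, after surgery, which was done at Zeitgeber time (ZT) 2, that is 2 h after lights on. The unoperated groups were C0 (n = 9, collected at ZT2), C4 (n = 3, ZT6) and C4W (n = 2), and the sham groups were S1 (n = 6), S4 (n = 5), S10 (n = 3), S20 (n = 3) and S48 (n = 3). The PH groups were X1 (n = 6), X4 (n = 3), X10 (n = 6), X20 (n = 6), X28 (n = 3), X36 (n = 6), X44 (n = 3), X48 (n = 5), X72 (n = 3), X1W (n = 3) and X4W (n = 2). No gene was altered in any group, and no agent was given as a treatment under study. By the study's methods, surgery was done under isoflurane anaesthesia. The paper also names a painkiller among the possible sources of the early response to either operation. Differences between operated and C groups thus include any effect of these drugs, which was not tested. By the study's methods, mice were operated on 3 at a time and killed together, so the livers of a group of 3 may share a session, and p-values then measure the spread among such livers. Levels are reads scaled to gene length and library size (RPKM), so that levels of genes can be compared per length.

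The 80 libraries held an estimated 12.2 to 48.9 megareads (median 26.7). Behind the values of a single library stood an estimated 60.9 to 232 reads for Sms, the gene with the fewest, and at least 148 reads for each of the other members. All 8 members had reads in all 80 libraries. The 5 hepatocyte markers (Alb, Apoa1, Ttr, Serpina1a, Cps1) were detected throughout, with summed levels of 24162 to 57487 RPKM, and none of the 4 pancreas and 3 skeletal muscle markers passed the detection limit. Replicate 8 of C0 had the highest sums of the macrophage (148 RPKM, median of all libraries 27.1), neutrophil (45.9, median 4.26) and endothelial (31.0, median 16.6) markers, and X28 replicate 2 stood apart in how its low values were spaced. In such bulk tissue, fewer cells of a type and less RNA per cell cannot be told apart.

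The C0 livers, the common reference of many comparisons, were not alike in these genes. Odc1 stood at 28.2, 30.7 and 28.8 RPKM in replicates 1 to 3, at 22.4, 19.5 and 21.7 in replicates 4 to 6 and at 17.0, 10.9 and 12.2 in replicates 7 to 9, 3 ranges that did not overlap. Mean Amd1 was 6.24, 9.61 and 5.10 RPKM in the same sets, mean Azin1 12.2, 12.2 and 8.20, and mean Oaz1 229, 177 and 147. By the study's methods the livers were collected in 3 time periods, with 3 C0 livers in each. C4 came from the last of them only, C4W, S10, S20 and X4W from the middle one, and S48, X28, X44, X48, X72 and X1W from the earliest, whereas S1, S4, X1, X4, X10, X20 and X36 were spread over the earlier 2. Which replicate number belongs to which period is not given in the sources used here. Replicates 1 to 3, 4 to 6 and 7 to 9 were taken as the periods in order, which is an assumption and makes the X4 livers analysed (replicates 4 to 6) livers of the middle period. For the members, each comparison with C0 below was also made against each set of 3 C0 livers. All comparisons of the members were likewise refitted with the period as a term. Comparisons with C0 share these libraries and are not independent of each other, whereas those with the sham groups at the same hour do not use them.

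In the mouse genome (mm9), Odc1 lies at chr12:17551679-17558308 on the plus strand, Amd1 at chr10:40007265-40021992 (minus), Srm at chr4:147965612-147969102 (plus) and Sms at chrX:153881787-153930219 (minus). Sat1 lies at chrX:151647675-151650992 (minus), Azin1 at chr15:38417185-38449021 (minus), Oaz1 at chr10:80289401-80292035 (plus) and Oaz2 at chr9:65515808-65538107 (plus). All are annotated as protein-coding except Oaz2, which the table types as a pseudogene. Several members have near-identical copies elsewhere, and the authors split a read among all the positions it matched. Of 100-base windows along the longest transcript, with up to 2 mismatches, 96.8% matched a second place for Amd1, 85.7% for Oaz1, 82.3% for Oaz2, 76.3% for Odc1, 42.8% for Sms, 31.0% for Sat1 and 0% for Srm and Azin1. Among the annotated copies were Amd2, whose estimated reads were a median 35.8% of those of Amd1, and the pseudogene Gm9786, with 19.6% of those of Oaz1. The Odc1 pseudogenes Gm17709 and Gm9115 held 2.37% and 1.08% of the reads of Odc1. Levels of these members are therefore uncertain, and those of Srm and Azin1 are not affected in this way.

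The promoters of Odc1 and Amd1, the decarboxylases whose RNA rose after PH, are shown as the 250 bases before the start of transcription, from RefSeq (GRCm38.p6), read in the direction of the gene. Odc1 is at chr12:17544623-17544872 on the plus strand and Amd1 at chr10:40302189-40302438 on the minus strand, and capitals mark the motifs found on either strand.
Odc1: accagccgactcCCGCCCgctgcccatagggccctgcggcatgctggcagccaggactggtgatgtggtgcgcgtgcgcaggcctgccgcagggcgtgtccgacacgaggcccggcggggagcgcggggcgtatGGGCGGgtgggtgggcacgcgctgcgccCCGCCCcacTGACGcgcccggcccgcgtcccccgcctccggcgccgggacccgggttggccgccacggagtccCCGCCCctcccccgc
Amd1: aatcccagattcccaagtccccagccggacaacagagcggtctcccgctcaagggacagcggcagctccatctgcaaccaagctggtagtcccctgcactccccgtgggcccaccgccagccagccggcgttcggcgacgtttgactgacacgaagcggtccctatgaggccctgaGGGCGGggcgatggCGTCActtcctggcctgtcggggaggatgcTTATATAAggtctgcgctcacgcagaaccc
The Odc1 window, with 80% G and C (median of all promoters 52.4%), held 4 GC boxes (GGGCGG), whose first bases were 238, 116, 88 and 15 bases before the start, and 1 TGACG at 79 bases, the first 5 letters of the cyclic-AMP response element. The Amd1 window, with 64.4% G and C, held TATAA on each strand in 1 run starting 30 bases before the start, a GC box at 74 bases and TGACG at 60 bases. Of all 32851 promoters in the table, 32.7% held a GC box, 17.8% TGACG and 22.8% TATAA in this window. An E-box (CACGTG, in 6.02% of promoters), the letters that Myc binds, was found in neither, nor were CCAAT (33.9%) or the whole response element TGACGTCA (1.55%). These matches are letters only. The table holds 6 of the 8 members. Srm and Azin1 are named only.

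The members spanned a wide range of levels. Oaz1 was the most abundant in all 19 groups (group means 113 to 194 RPKM), Odc1 was among the next 2 (14.2 to 55.2 RPKM), and Sms was the lowest in all of them (0.538 to 1.00 RPKM). Srm (7.52 to 23.4), Sat1 (7.03 to 24.3), Azin1 (9.95 to 20.3), Amd1 (6.29 to 17.8) and Oaz2 (2.94 to 8.86 RPKM) lay between. When the 19 groups were put in order of their level, neighbours overlapped for every member in nearly all steps (17 or 18 of 18), so only wide steps in the orders below can be read.

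**Figure D1:**
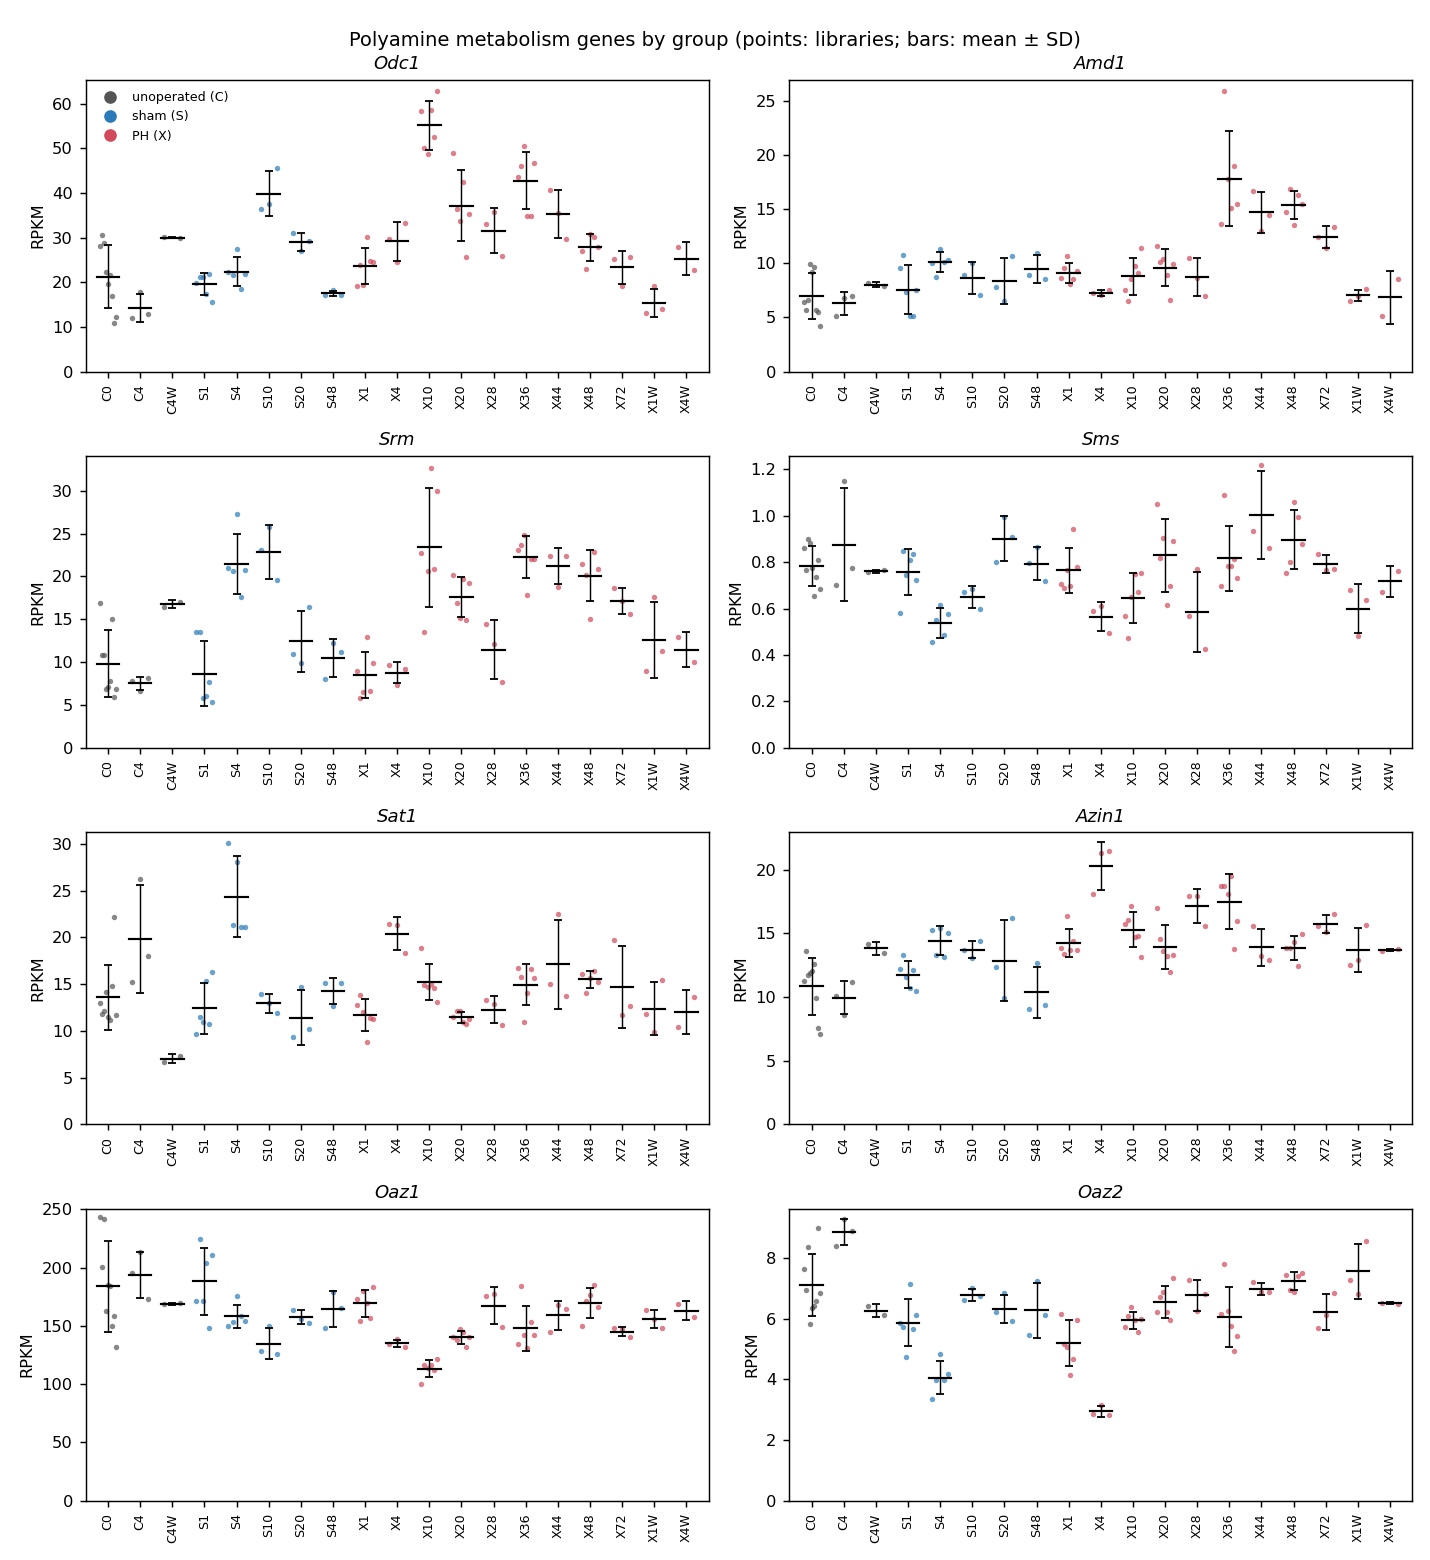
RPKM of the 8 members (y axis, from 0) in each group (x axis: C unoperated, S sham, X PH, with hours or weeks W after surgery). Points are libraries, bars are means ± SD. Odc1 was highest at X10 (55.2 RPKM), Amd1 at X36 (17.8), and Oaz2 lowest at X4 (2.94).

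Odc1, the first enzyme of the pathway, reached its highest level 10 h after PH. The 6 X10 livers held 48.8 to 62.8 RPKM (median 55.4) and the 9 C0 livers 10.9 to 30.7 (median 21.7), with no overlap. This was a 2.71-fold rise (log2 fold change 1.44 ± 0.14 SE, limma, adjusted p = 1.2e-13). The second highest group was X36, with 34.9 to 50.5 RPKM (median 44.9, log2 fold change 1.07 ± 0.14, adjusted p = 1.9e-09), again above every C0 liver. With the period as a term X10 (1.14 ± 0.13) and X36 (0.76 ± 0.13) were still called. Odc1 was also called at X20 (0.85 ± 0.14), X28 (0.63 ± 0.18) and X44 (0.79 ± 0.18), but not at X48 (0.46 ± 0.15, below the limit of 0.5) or X72 (0.20 ± 0.18). Against C0 replicates 1 to 3 alone none of these 3 calls held (0.32, 0.10 and 0.26), and with the period as a term X20 was called (0.55 ± 0.13) and X28 (0.27 ± 0.16) and X44 (0.43 ± 0.16) were not.

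Odc1 was also high after sham surgery. The 3 S10 livers held 36.5, 37.4 and 45.7 RPKM, all above C0 (0.97 ± 0.18, adjusted p = 9.5e-06). This call was lost against C0 replicates 1 to 3 (0.44) and held with the period as a term (0.73 ± 0.16). The 6 X10 livers all lay above the 3 S10 livers. The difference between X10 and S10 did not pass the test (0.47 ± 0.19, 95% CI 0.08 to 0.85, adjusted p = 0.10). It did with X10 replicates 4 to 6 alone, taken to be of the same period as S10 (0.54, adjusted p = 0.03), and with the replicate number as a block (0.51, adjusted p = 0.018), while with the period as a term it was not called (0.41 ± 0.16, adjusted p = 0.081). The 3 highest groups, X10, X36 and S10, were collected at ZT12 or ZT14, and no unoperated liver at those hours was analysed here, so the part of the time of day was not tested for them. At ZT6 the C4 livers held 12.0, 17.9 and 12.8 RPKM, and the X4 livers 29.6, 24.6 and 33.4, so that Odc1 was higher in X4 by 1.03 ± 0.22 (adjusted p = 6.6e-05) without overlap, and S4 was higher than C4 by 0.65 ± 0.20 (adjusted p = 0.0038). C4, however, came from another period than X4 and S4. With the period as a term neither difference was called, at 0.19 ± 0.24 (adjusted p = 0.56) for X4 and -0.27 ± 0.22 (adjusted p = 0.35) for S4, so that surgery and period cannot be told apart for Odc1 at 4 h.

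Amd1, the other regulated decarboxylase, rose later. The 6 X36 livers held 13.6 to 25.9 RPKM (median 16.6), the X44 livers 16.7, 12.97 and 14.4 and the X48 livers 14.7, 16.9, 13.6, 16.3 and 15.5, whereas C0 spanned 4.16 to 9.92 (median 6.39). All 14 of these livers lay above all 9 C0 livers. The log2 fold changes were 1.34 ± 0.15 at X36 (adjusted p = 3.0e-12), 1.09 ± 0.19 at X44 and 1.16 ± 0.15 at X48 (adjusted p = 1.7e-09), and 0.86 ± 0.19 at X72. In X1, X4, X10, X20, X28 and X1W no change was called, with differences of 0.06 to 0.48. The 4 calls held with the period as a term (1.14, 0.88, 0.95 and 0.64), although that at X72 was lost against C0 replicates 4 to 6 (0.36). Adding the reads of its near-copy Amd2 to Amd1 changed no call.

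Srm, which makes spermidine, was high at separate times. The 6 X10 livers held 13.6 to 32.7 RPKM (median 21.8) and C0 5.95 to 16.9 (median 7.77), a rise of 1.27 ± 0.19 (adjusted p = 3.3e-08). After 0.91 ± 0.19 at X20, Srm at X28 was not called (14.5, 12.2 and 7.73 RPKM). It was again above C0 at X36 (1.24 ± 0.19, adjusted p = 5.5e-08), X44 (1.18 ± 0.24), X48 (1.09 ± 0.20) and X72 (0.87 ± 0.24). The unoperated C4W livers, however, held 16.4 and 17.1 RPKM, within the range of the X72 livers (15.6 to 18.6). The call at X72 was lost against C0 replicates 1 to 3 (0.43). Srm was called at the same hours with the period as a term. Among all groups, Srm had its highest mean log2 level in S10, with 23.1, 25.8 and 19.6 RPKM, followed by X10 and X36. These groups were collected at ZT12 or ZT14, when no unoperated liver was analysed here. X4 and X28 were collected at ZT6, as was C4, the group with the lowest Srm (mean 7.52 RPKM). The part of the time of day was not tested, nor was X28 compared with X20 or X36. The calls at X10 (0.55), X20, X48 and X72 were lost when the groups of more than 3 livers were reduced to replicates 1 to 3. Those at X36 and X44 held.

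The early Srm response differed between the operations. The 5 S4 livers held 21.0, 20.6, 27.3, 17.6 and 20.7 RPKM, the 3 X4 livers 9.72, 7.36 and 9.17, and the 3 unoperated C4 livers of the same hour 7.75, 6.68 and 8.13. At 4 h Srm was thus higher after sham surgery than in C4 (1.47 ± 0.26, adjusted p = 2.7e-06), while after PH it was 0.21 ± 0.29 from C4 (adjusted p = 0.58). With the period as a term S4 was still higher than C4 (1.30 ± 0.37, adjusted p = 0.0032). X4 was lower than S4 by -1.26 ± 0.26 (adjusted p = 3.5e-04). Markers of other cells differed among these groups too: the 5 neutrophil markers summed to 6.92 to 41.6 RPKM in S4, 4.48 to 9.66 in X4 and 1.04 to 4.38 in C4, and 7 macrophage markers to 11.3 to 29.5, 11.5 to 14.8 and 29.5 to 40.4. Their part in the 4 h results of Srm and the other members was not tested. By 10 h the means were 23.4 RPKM in X10 and 22.8 in S10 (-0.01 ± 0.25, 95% CI -0.52 to 0.50). The difference between PH and sham itself changed from 1 h to 4 h (-1.28 ± 0.33, adjusted p = 0.013) and from 4 h to 10 h (1.25 ± 0.37, adjusted p = 0.034). The X4-S4 difference was called in each fit that left out a replicate number. The change from 1 h to 4 h was not when number 3, 5 or 6 was left out (adjusted p = 0.094 to 0.11), nor that from 4 h to 10 h without number 1, 3, 4, 5 or 6 (adjusted p = 0.06 to 0.24) or with the period as a term (1.12 ± 0.39, adjusted p = 0.093).

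Sms, the spermine synthase, was lowest at 4 h after either operation and was not called against C0 or sham at any hour. Its group means stayed between 0.538 (S4) and 1.00 RPKM (X44). Those of X28 (0.587 RPKM), X1W (0.600) and X10 (0.646) were low as well, so a low level was not particular to 4 h. The S4 livers held 0.458 to 0.615 RPKM and the X4 livers 0.588, 0.613 and 0.494, all under the lowest C0 liver (0.656). These differences, -0.39 ± 0.09 (adjusted p = 2.5e-04) and -0.34 ± 0.11 (adjusted p = 0.0072), passed the p threshold but not the limit of 0.5, and likewise those from C4, -0.50 ± 0.12 (adjusted p = 4.3e-04) and -0.45 ± 0.14 (adjusted p = 0.0043). Sms was, with the period as a term, called below C4 in S4 (-0.59 ± 0.17, adjusted p = 0.0048) and X4 (-0.54 ± 0.19, adjusted p = 0.015). Against C0 neither was called with that term (-0.42 and -0.37). With 0.05 RPKM added in place of 0.25, Sms was called in S4 against C0 (-0.51) and in S4 (-0.63) and X4 (-0.57) against C4. In that fit X4 (-0.44), X28 (-0.42), X1W (-0.37) and X10 (-0.27) passed the p threshold against C0 but not the limit of 0.5. So did X44, which was higher (0.33). The 0.25 RPKM added before taking logarithms is not small beside the level of Sms and makes such differences smaller than those of the RPKM themselves.

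Sat1, the acetyltransferase of polyamine breakdown, was highest at 4 h in operated and unoperated livers alike. The S4 livers held 30.1, 21.4, 28.0, 21.1 and 21.2 RPKM, the X4 livers 21.5, 21.3 and 18.3 and the C4 livers 15.3, 26.3 and 17.97. The median of C0 was 12.1, with 1 liver, replicate 8, at 22.2 and the others at 11.2 to 14.8. Against C0, Sat1 was higher by 0.84 ± 0.14 in S4, 0.60 ± 0.16 in X4 and 0.53 ± 0.16 in C4 (adjusted p = 2.2e-07, 0.0011 and 0.018). Against C4 of the same hour neither operation was called (0.31 ± 0.18 and 0.07 ± 0.20). Sat1 was, with the period as a term, called in S4 against C4 (0.66 ± 0.24) and no longer in C4 against C0 (0.30 ± 0.19). C0 replicate 8 was also the liver with the highest macrophage and neutrophil markers, and the part of those cells in its Sat1 level was not tested. A day after X4, at X28, Sat1 was back to 13.3, 12.9 and 10.6 RPKM, lower than at X4 (-0.72 ± 0.20, adjusted p = 0.0026).

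Azin1, the antizyme inhibitor, was at its highest 4 h after PH. The X4 livers held 18.1, 21.3 and 21.5 RPKM, C0 7.11 to 13.6 (median 11.7), C4 10.1, 8.59 and 11.1, and S4 15.3, 13.3, 15.4, 13.1 and 15.0. X4 lay above every liver of these groups. It was higher than C0 by 0.91 ± 0.12 (adjusted p = 3.2e-09) and than C4 by 1.01 ± 0.15 (adjusted p = 4.6e-08). Against S4 the difference of 0.48 ± 0.13 passed the p threshold (adjusted p = 0.0083) but stayed under the limit of 0.5. Once libraries were scaled to the same median it was 0.53, past that limit (adjusted p = 0.0021), as it was with the period as a term (0.56 ± 0.11, adjusted p = 2.0e-04), with the replicate number as a block (0.56) and with replicates 4 to 6 alone (0.52). X4 was also higher than C0 (0.79 ± 0.11) and C4 (0.51 ± 0.16) with the period as a term. S4 was itself above C4 (0.53 ± 0.13), but not with that term (-0.05 ± 0.15). Azin1 was also called above C0 at X10 (0.51 ± 0.10), X28 (0.67 ± 0.12), X36 (0.70 ± 0.10) and X72 (0.55 ± 0.12). The call at X28 was lost against C0 replicates 1 to 3 and 4 to 6 (0.49 and 0.48) and with the period as a term (0.42 ± 0.11). Those at X10 and X72 were lost against the same C0 sets and with the period as a term (0.32 ± 0.09 and 0.30 ± 0.11). X36 was still called with that term (0.51 ± 0.09). The call at X10 was lost without replicate 3, 7, 8 or 9 and that at X72 without replicate 8 or 9, and with libraries scaled to the same median Azin1 was not called at X10 (0.32), X36 (0.36) or X72 (0.21).

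Oaz1, the main antizyme, moved the other way. The 6 X10 livers, at 99.8 to 121 RPKM (median 115), lay below all 9 C0 livers (131 to 243, median 184) and below all 3 S10 livers (128, 150 and 126). Oaz1 at X10 was lower than C0 by -0.67 ± 0.08 (adjusted p = 2.7e-10), and against S10 the difference was -0.25 ± 0.11 (adjusted p = 0.16). At 4 h the X4 livers held 134, 138 and 132 RPKM and the C4 livers 195, 213 and 173 (-0.52 ± 0.13, adjusted p = 5.8e-04). This call at 4 h was lost with libraries scaled to the same median (-0.27) and without replicate 2 of each group. With the period as a term it was -0.94 ± 0.15 (adjusted p = 7.6e-07), and Oaz1 was then also called below C0 at X4 (-0.54 ± 0.10), X10 (-0.82 ± 0.08), X20 (-0.52 ± 0.08) and S10 (-0.55 ± 0.10) and below C4 at S4 (-0.75 ± 0.14).

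Oaz2, a second antizyme gene, showed the most marked fall of any member. The X4 livers held 2.84, 3.16 and 2.82 RPKM and the S4 livers 3.34, 3.96, 4.84, 3.98 and 4.16, against 8.40, 9.27 and 8.90 in C4 and 5.82 to 9.00 (median 6.84) in C0. None of these 4 groups overlapped except C4 with C0. Oaz2 was lower in X4 than in C4 by -1.51 ± 0.12 (adjusted p = 4.6e-16) and in S4 by -1.09 ± 0.11 (adjusted p = 1.3e-12). X4 was lower than S4 by -0.43 ± 0.11 (adjusted p = 0.0048), under the limit of 0.5. Oaz2 was, with the period as a term, lower than C4 by -1.37 ± 0.16 in X4 and -0.99 ± 0.15 in S4. By 10 h Oaz2 had returned to 5.57 to 6.38 RPKM after PH and to 6.60, 7.00 and 6.75 after sham surgery. A day after X4, at the same time of day, X28 was higher by 1.14 ± 0.12 (7.27, 6.24 and 6.80 RPKM, adjusted p = 6.8e-11).

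Many genes changed in this series, and the counts of members were read against that background. As for all 15396 genes tested, a call took a log2 fold change beyond 0.5 together with an adjusted p under 0.05. Against C0, 0 of 8 members were called at X1 (13.5% of all genes), 4 at X4 (38.2%), 4 at X10 (36.4%), 2 at X20 (24.1%), 2 at X28 (24.9%), 4 at X36 (35%), 3 at X44 (39.2%), 2 at X48 (38.1%), 3 at X72 (33.2%) and 0 at X1W (16.9%). All 24 of these calls were increases other than Oaz2 at X4 and Oaz1 at X10. Among all genes called, increases likewise outnumbered decreases in each group from X10 on, as at X36 (3964 against 1430) and X48 (4688 against 1180). At X1 and X4 decreases were the more frequent (4144 against 1730 at X4). After sham surgery 0 members were called at S1 (7.77% of all genes), 4 at S4 (34.4%), 2 at S10 (29.1%), 1 at S20 (12.1%) and 0 at S48 (8.88%). Shares of members called were thus near those of all genes at most times. The median of all genes tested was below C0 by -0.20 at X4, against which Azin1 rose and beyond which Oaz2 fell. It was above C0 by 0.23 at X44, 0.24 at X48 and 0.21 at X72, which the increases of Amd1 and Srm at those times exceeded. After scaling of all libraries to the same median Amd1 was still called at X72 (0.51) and Srm was not (0.53, with the call lost on its p).

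The calls against C0 depended on which C0 livers were used. A fit with the period as a term gave 21 after PH, 18 of them among the 24. Of the 24 after PH, 15 remained against replicates 1 to 3, 19 against 4 to 6 and 22 against 7 to 9, while the calls made in all were 26, 20 and 36. For Odc1, X10 was higher by 0.91, 1.37 and 2.05 than replicates 1 to 3, 4 to 6 and 7 to 9, and called each time, as was X36 (0.53, 0.99 and 1.67). At X4, by contrast, Odc1 was -0.01 against replicates 1 to 3 and 1.13 against replicates 7 to 9, and its call with all 9 was lost without replicate 6, 7, 8 or 9. The Odc1 call at S20 (0.53 ± 0.18, adjusted p = 0.025) was lost against replicates 1 to 3 (-0.01) and 4 to 6 (0.45), with libraries scaled to the same median (0.40) and without replicate 1, 3, 7, 8 or 9. Amd1 at X36, X44 and X48 was called against each set, with 0.59 (X44, replicates 4 to 6) as the smallest rise. Azin1 at X4 was called against each set (0.72 to 1.29), as was Oaz2 at X4 (-1.30 to -1.01). Oaz1 at X10 was called against replicates 1 to 3 and 4 to 6 (-1.01 and -0.64) but not 7 to 9 (-0.37). Srm was called against each set at X10, X36, X44 and X48, and at X20 not against replicates 1 to 3 (0.47). Sat1 at X4 was not called against replicates 7 to 9 (0.37), the set with replicate 8. Amd1 at S4 was not called against replicates 4 to 6 (0.07) or without replicate 9.

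**Figure D2:**
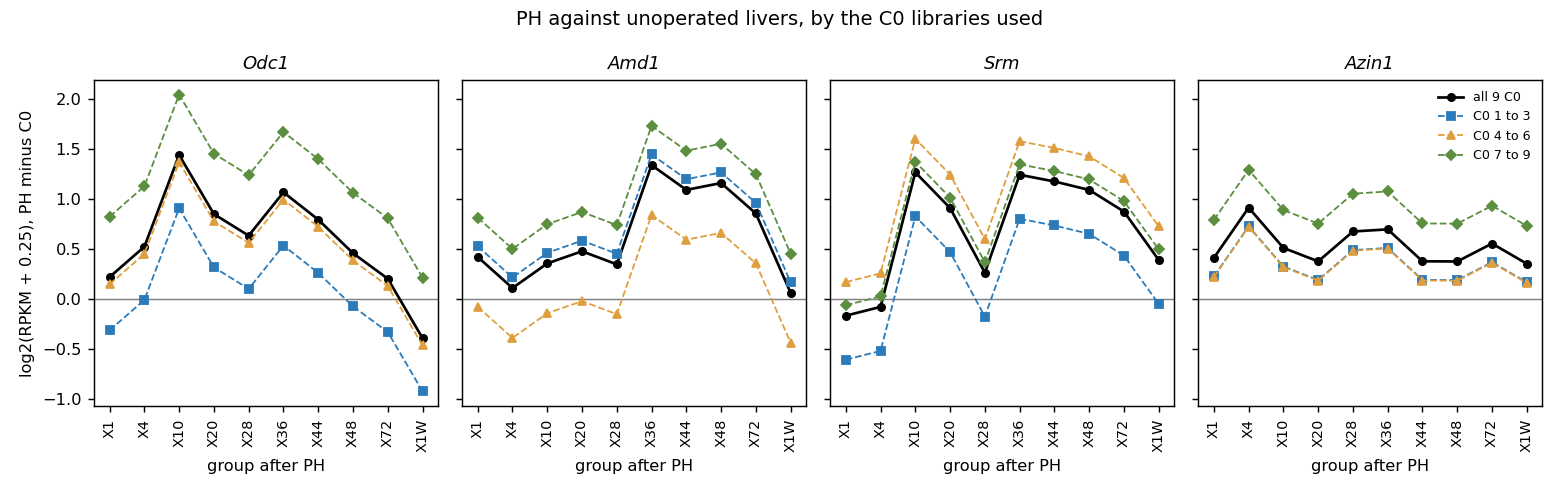
Log2 difference in level between PH groups (x axis) and C0 (y axis, on the log2(RPKM + 0.25) scale) for 4 members, with all 9 C0 livers (black) and with replicates 1 to 3, 4 to 6 or 7 to 9 alone (coloured, dashed). The Odc1 lines run parallel, at 0.91, 1.37 and 2.05 for X10. The lines of a member are parallel by construction, since only the reference changes.

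Against sham surgery at the same hour, few members differed. No member was called at 1 h (0.65% of all genes), 10 h (7.02%) or 20 h (7.11%), and Srm alone at 4 h (8.64%). The 2 further calls made with the replicate block, and with replicates 4 to 6 alone, were Azin1 at 4 h and Odc1 at 10 h. At 48 h, when both groups came from the earliest period, 3 of 8 were called (27.2%), and all 3 are enzymes of synthesis. Odc1 was 27.1, 23.1, 30.9, 30.2 and 27.9 RPKM in X48 and 17.2, 18.2 and 17.1 in S48 (0.65 ± 0.20, adjusted p = 0.0056). Amd1 in S48 was 8.94, 10.96 and 8.52 RPKM, below all 5 X48 livers (0.69 ± 0.20, adjusted p = 0.0042). Srm was 21.5, 20.2, 15.0, 22.9 and 20.9 RPKM in X48 and 8.01, 12.2 and 11.2 in S48 (0.93 ± 0.26, adjusted p = 0.0028). None of the 3 overlapped. At this hour, however, the median of all genes tested was 0.27 higher in X48, and with libraries scaled to the same median none of the 3 was called (Odc1 0.21, Amd1 0.25, Srm 0.49). Without replicate 1 of each group Srm was not called either (0.73, adjusted p = 0.069).

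**Figure D3:**
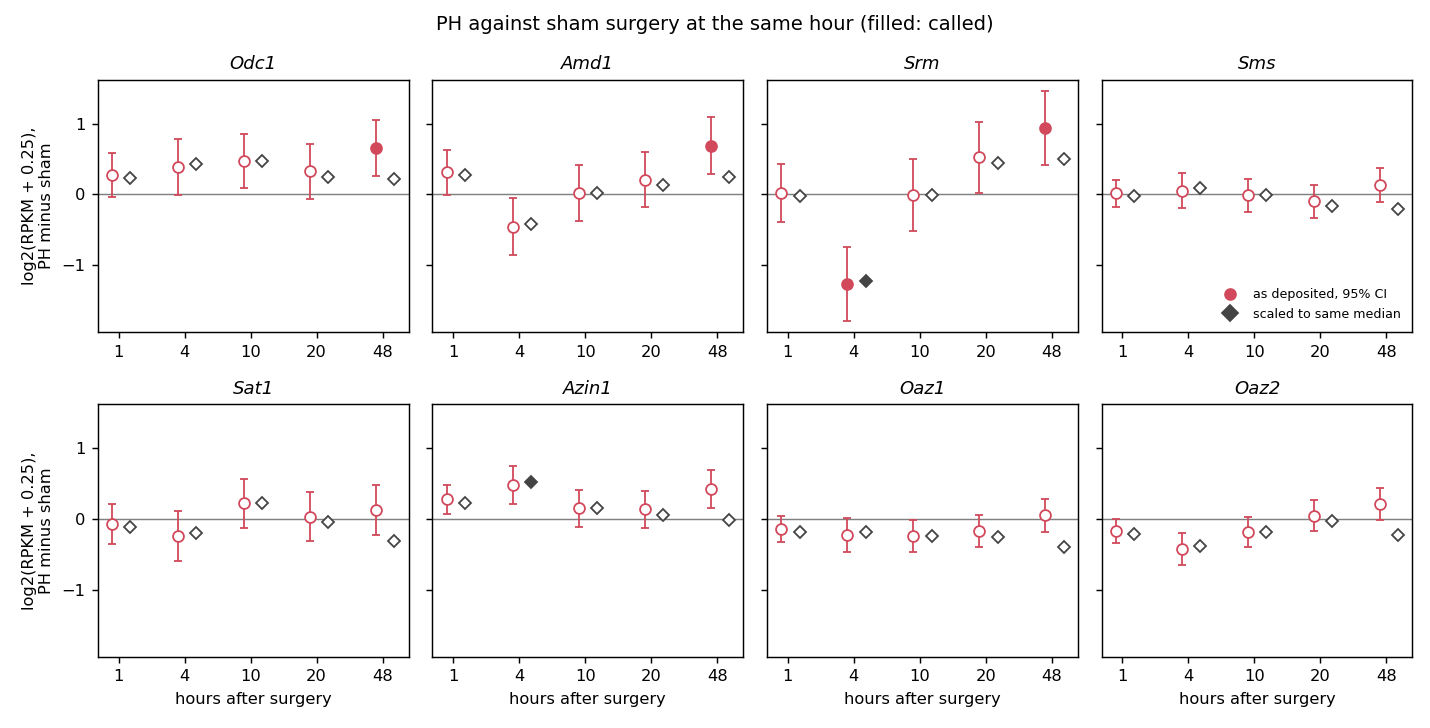
Difference between PH and sham surgery (y axis, log2(RPKM + 0.25)) by hours after surgery (x axis) for each member. Circles are estimates from the deposited values with 95% confidence intervals, diamonds those after scaling libraries to the same median, and filled symbols were called. Srm at 4 h (-1.26) stands lowest, and the filled circles at 48 h have open diamonds.

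Between unoperated livers, 2 of 8 members were called for C4 against C0 (7.89% of all genes), Sat1 as above and Odc1, lower by -0.51 ± 0.18 (adjusted p = 0.044). The Odc1 call was lost without replicate 1, 2, 3, 4, 5 or 6 and its sign turned against C0 replicates 7 to 9 alone, the C0 livers taken to be of the same period as C4 (0.09). The Sat1 call was lost without replicate 2 or 3 and with libraries scaled to the same median. Against C4, 4 of 8 members were called at X4 (45.6%) and 5 at S4 (43.3%). Of the 5 at S4, Amd1 (0.67 ± 0.20) was lost without replicate 1 and Azin1 without replicate 2, Odc1 without replicate 1 or 3, and all 3 with the period as a term. At the same time of day on successive days of PH, 2 members were called for X28 against X4 (28.3%), Oaz2 and Sat1, and 2 for X44 against X20 (16.1%). The latter were Amd1 (0.62 ± 0.20) and Sat1 (0.54 ± 0.17, adjusted p = 0.014 for either), and neither was called with libraries scaled to the same median (0.36 and 0.28). The Amd1 call was also lost without replicate 1, 3 or 5 and the Sat1 call without replicate 2. No member was called for X72 against X48 (5.96%).

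At 4 weeks after PH no member was called against C4W (0.065% of all genes, with 2 livers a group). Odc1 was 27.9 and 22.7 RPKM in X4W and 30.1 and 29.9 in C4W. The widest difference was in Sat1, at 10.4 and 13.7 RPKM against 6.71 and 7.35 (0.74 ± 0.24, adjusted p = 0.67). By 1 week Odc1 stood at 13.2, 14.0 and 19.1 RPKM, within the range of all C0 livers. With the period as a term it was lower than C0 by -0.76 ± 0.16 at X1W and -0.56 ± 0.16 at S48 (adjusted p = 2.6e-04 and 0.014). Changes of the PH effect between successive hours were called for 1 of 8 members from 1 h to 4 h (4.68% of all genes) and from 4 h to 10 h (3.73%), Srm each time. None was from 10 h to 20 h (0.104%) or from 20 h to 48 h (13.2%).

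Because antizyme acts on the Odc1 protein, the levels of the transcripts were also set against each other within each liver, as a description without a test. RPKM of Oaz1 were 6.54 to 14.5 times those of Odc1 in C0 (median 8.64) and 11.9 to 16.2 times in C4. The ratio was lowest in X10, at 1.71 to 2.33 (median 2.06), followed by S10 (2.76, 3.51 and 4.00 in order of size) and X36 (2.82 to 4.40). No X10 liver reached the ratio of any liver of another group. For Oaz1 to Azin1 the ratio was 13.6 to 21.7 in C0 and lowest in X4, at 6.15 to 7.42, and X10, at 6.34 to 9.23. By X1W the ratio to Odc1 was 8.17 to 12.4, within the range of C0. The ratio to Azin1 was 9.41 to 13.1, higher than in X4 but still below every C0 liver. The unoperated C4W livers lay below every C0 liver as well, at 11.9 and 12.6 for Azin1 and 5.59 and 5.66 for Odc1. The copies of Oaz1 and Odc1 named above share in these reads, so the ratios compare groups rather than give the amounts of the transcripts.

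**Figure D4:**
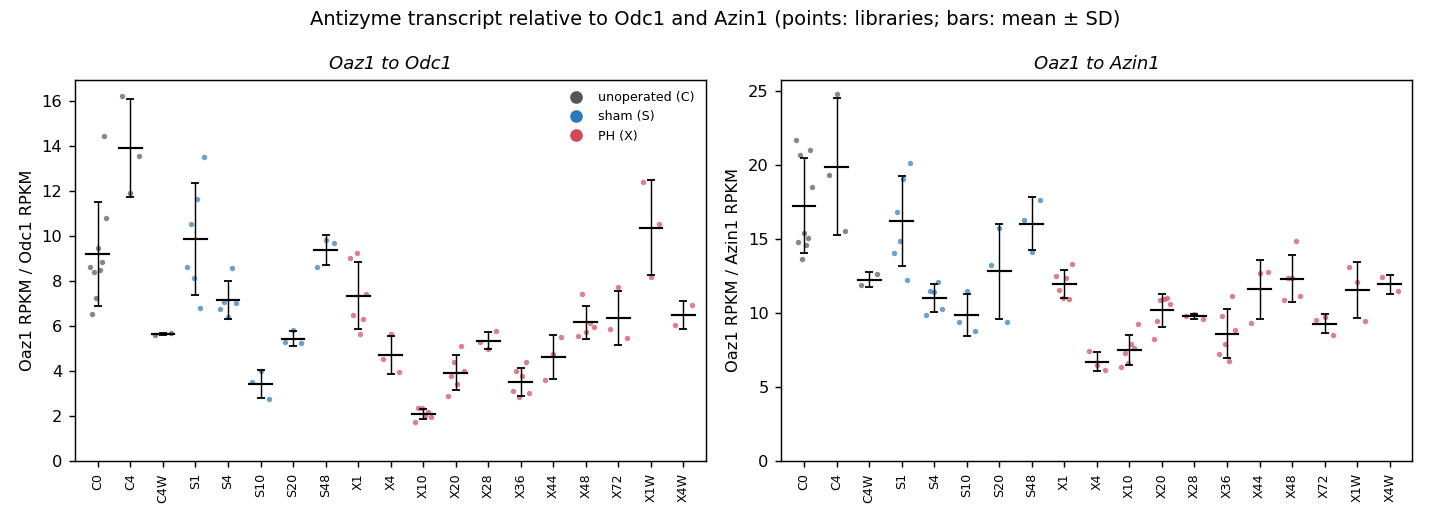
Ratio of Oaz1 RPKM to Odc1 RPKM (left) and to Azin1 RPKM (right) in each library (y axes, from 0) by group (x axes). Points are libraries and bars means ± SD. The 6 X10 livers have the lowest Oaz1 to Odc1 ratios, at 1.71 to 2.33.

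Among 37 other genes of the pathway, its precursors, transport and targets, 29 were tested. Against sham surgery 0 of 29 were called at 1 h, 3 at 4 h (2 higher, 1 lower), 7 at 10 h (4 higher, 3 lower), 10 at 20 h (6 higher, 4 lower) and 8 at 48 h (6 higher, 2 lower), against the shares of all genes given above. The values of these genes are from the main fit only, without the period as a term or libraries scaled to the same median. S10 and S20 came from the middle period only, whereas X10 and X20 were spread over the earlier 2. At 48 h the median of all genes tested was 0.27 higher in X48, so small increases there are uncertain. Oat, the aminotransferase that links ornithine to proline and glutamate, was higher after PH at 10 h (0.77 ± 0.26), 20 h (1.71 ± 0.26, 373 against 113 RPKM, adjusted p = 5.6e-06) and 48 h (1.41 ± 0.27). Arg1, the arginase that makes ornithine in the urea cycle, was higher at 10 h (0.65 ± 0.15) and 20 h (0.56 ± 0.15), and Otc, which uses ornithine there, was lower at 20 h (-0.57 ± 0.14) and 48 h (-0.60 ± 0.15). Paox, the oxidase of acetylated polyamines, was lower at 10 h (-0.63 ± 0.19), 20 h (-0.80 ± 0.19) and 48 h (7.99 against 16.6 RPKM, -1.05 ± 0.20, adjusted p = 1.6e-05).

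Mat2a, the S-adenosylmethionine synthase of dividing cells, was higher at 48 h (31.8 against 12.6 RPKM, 1.31 ± 0.17, adjusted p = 2.4e-09), and Mat1a, its form in resting liver, was higher at 20 h (0.89 ± 0.27). Of the methionine salvage genes, Mtap was higher at 48 h (0.72 ± 0.14), Got1 higher at 20 h (1.00 ± 0.32), Enoph1 lower at 4 h (-0.61 ± 0.17) and Adi1 lower at 10 h (-0.56 ± 0.14). Slc22a3, an organic cation transporter, was higher at 4, 10, 20 and 48 h, with 3.20 against 0.815 RPKM at 10 h (1.60 ± 0.25, adjusted p = 5.3e-06). The arginine and ornithine transporter Slc7a2 was higher at 4 h (0.95 ± 0.28), 10 h (0.83 ± 0.27) and 20 h (0.88 ± 0.27), and Slc3a2 at 48 h (0.53 ± 0.12). Atp13a2, a lysosomal polyamine exporter, was lower at 10 h (-0.52 ± 0.14) and 20 h (-0.67 ± 0.14), and Slc47a1 was lower at 20 h (-0.67 ± 0.20). Amd2 was higher at 48 h (0.65 ± 0.20) with its near-copy Amd1, whose own call there was lost with libraries scaled to the same median. Myc, a known activator of Odc1, was not called against sham at any of the 5 hours, with 0.89 ± 0.42 at 4 h and 0.98 ± 0.40 at 20 h (adjusted p = 0.16 and 0.097). Against C0, Myc was called higher at X10 (1.02) and X36 (0.76) and at no other hour after PH or sham surgery. Against C4, which is of another period, it was called higher in X4 (1.48) but not in S4 (0.59).

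**Figure D5:**
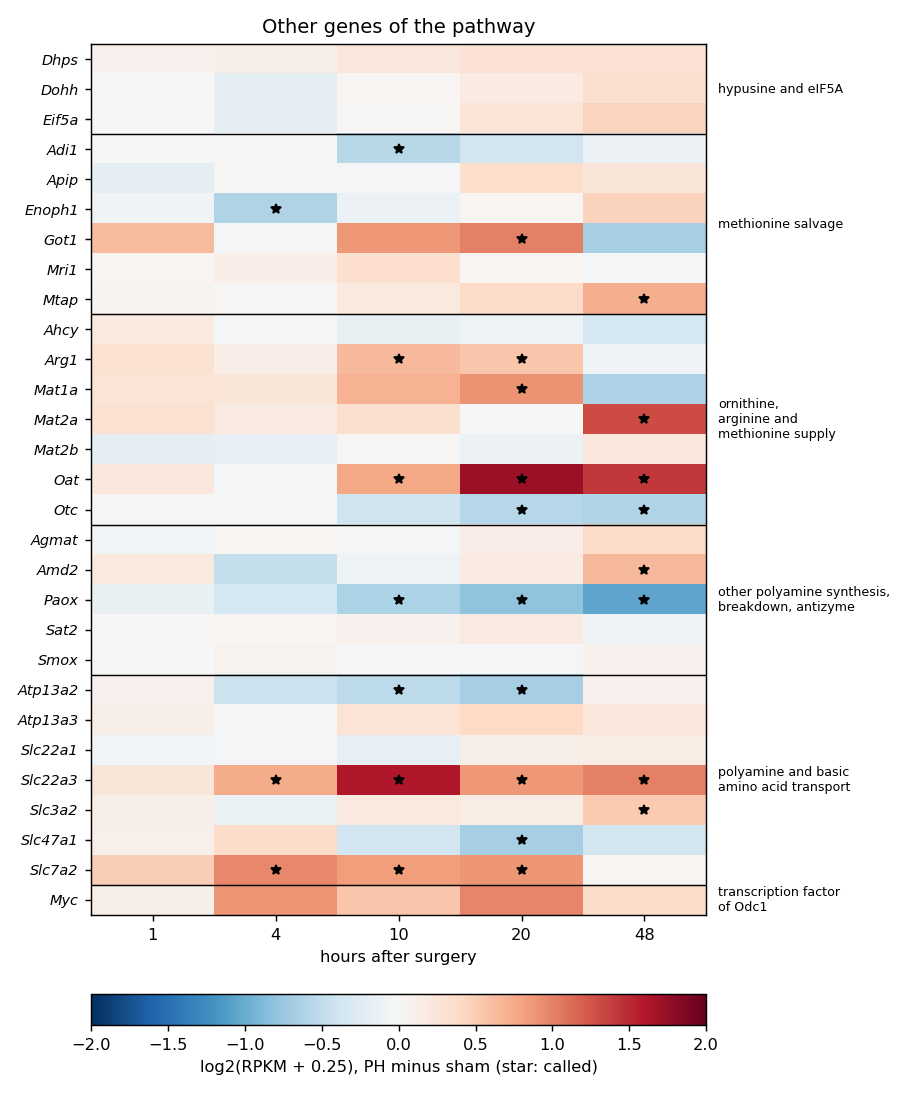
Difference between PH and sham surgery (colour, log2(RPKM + 0.25), red higher after PH) for 29 other genes of the pathway (rows, grouped by list) by hours after surgery (columns). Stars mark called differences, which for Oat reach 1.71 at 20 h and for Paox -1.05 at 48 h.

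Other genes of the table followed the members closely over the 19 group means. For Odc1 these were its pseudogenes Gm17709 (Pearson's r = 0.98) and Gm9115 (0.94), then Eaf1 (0.89). For Amd1 they were Amd2 (0.99), Amd-ps3 (0.97) and Rcc1 (0.93), and for Oaz1 the pseudogene Gm9786 (0.98), Asgr2 (0.89) and Cisd1 (0.89). Copies that share reads with a member thus headed 3 of the 8 lists. Srm was closest to Srprb (0.93), Tmem214 (0.93) and 9630033F20Rik (0.92). Among the closest to Azin1 were Hif1a (0.84) and Tbrg4 (0.83), and the closest to Oaz2 were Tmem60 (0.94), Mrpl36 (0.94) and Cldn3 (0.93). Sat1 was closest to C030048B08Rik (0.85), Med7 (0.85) and D19Ertd737e (0.84), and Sms to Ppm1m (0.88), 4930526A20Rik (0.86) and Hspb6 (0.86). These correlations are descriptions over 19 groups, which share their libraries and depth, without a test. Among the members themselves, Odc1 and Srm (0.69) and Amd1 and Srm (0.67) were the closest, and Odc1 and Oaz1 (-0.73) the most opposed.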

How the data were processed

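The authors deposited log2 RPKM per gene and library. Per the study's methods, stranded single-end reads of poly(A) RNA were trimmed, mapped to mm9 with TopHat2 2.0.13, handled with SAMtools 0.1.19 and counted over Ensembl genes, a read with several positions being split equally among them. A value of -14.29 stands for no reads (52.9% of values). RPKM are not counts, and low values gave whole reads for a median of only 83.3% of cases (within 0.05 of a read), so no count test was run. Depth was estimated from the spacing of low values, and its precision is that of an estimate. Groups were taken from the labels and the time period of each group from the study's methods. A fit with the period as a further term was added after seeing the data. Of 87 labelled samples, 7 had no matching column (3 of X4, 3 of X60, 1 of X4W) and are not analysed here, which leaves X60 out, and 4 columns that matched no label were not used.

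Limma 3.58.1 (R 4.3.3) was fitted to log2(RPKM + 0.25) of the 15396 genes above -1.5 log2 RPKM in at least 1 library, with 1 coefficient per group over all 19 groups and a trended variance. P-values were adjusted by Benjamini-Hochberg over all genes in each of 31 comparisons. Calls took a log2 fold change beyond 0.5 together with an adjusted p under 0.05. Fold changes are on the log2(RPKM + 0.25) scale and understate those of low genes. Sequence copies were searched with minimap2 2.31, in windows of 100 bases every 10 bases. Python 3.11.15 with pandas 2.3.3, numpy 2.4.6 and matplotlib 3.10.9 was used for the rest. The genes named are the 8 members, the listed pathway genes called between PH and sham surgery, Myc (added after its values were seen), and the 3 genes of 11553 compared with the highest correlation to each member, of which 1 is not reported here. The members and lists were chosen with earlier results of these data known.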

Additional observations from a re-analysis of the deposited data

Results flagged for a closer look

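In 5 of 64 sets of a member in a group of 4 to 10 livers (7.81%), 1 liver stood far from the rest, and chance alone flags about 1 in 20. Sat1 in C0 replicate 8 was 22.2 RPKM, with the nearest liver at 14.8 and a mean of the others of 12.5. Without that replicate number Sat1 was still called at X4 (0.69) and S4 (0.94). Sat1 in X10 replicate 1 was 18.8 RPKM (nearest 15.0). Sms in X1 replicate 5 was 0.944 RPKM (nearest 0.781) and in X36 replicate 2 was 1.09 (nearest 0.816). Azin1 in X1 replicate 3 was 16.3 RPKM (nearest 14.4).

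The difference between PH and sham surgery changed over time for Srm, by -1.28 from 1 h to 4 h and by 1.25 from 4 h to 10 h (limma's test of the change itself, adjusted p = 0.013 and 0.034). These changes share the 4 h groups.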

How the results depend on the processing

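Of 52 calls among 248 pairs of a member and a comparison, 12 were called under each alternative run on them and 20 under each but the stricter adjusted p of 1e-07. With that stricter p the calls fell from 24 to 10 after PH against C0, from 7 to 1 after sham surgery against C0, from 4 to 0 between PH and sham, from 11 to 3 in the comparisons with unoperated C4 or of C4 with C0, from 4 to 1 at the same time of day and from 2 to 0 for changes of the PH effect. With libraries scaled to the same median, 39 of 52 calls held, and the counts were 2 between PH and sham and 2 at the same time of day. Against C0 replicates 7 to 9 alone, sham surgery gave 17 calls and C4 0 (2 with all C0 livers). Groups of over 3 livers reduced to replicates 1 to 3, chosen after seeing the data, gave 11 for sham against C0, 2 at the same time of day and 1 for changes of the PH effect, and reduced to replicates 4 to 6 gave 4 for the latter. That last count was 1 without a filter on low values and 1 in a fit of only the groups compared. With the time period as a term, also chosen after seeing the data, 37 of 52 calls held, changes of the PH effect gave 1 call, and the sign turned for Odc1 in C4 against C0 (0.0929) and, against C4, for Odc1 (-0.266) and Azin1 (-0.0511) in S4.

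Leaving out each replicate number gave 21 to 26 calls after PH against C0, 5 to 8 after sham surgery, 4 to 5 between PH and sham, 8 to 11 with C4, 3 to 4 at the same time of day, 0 to 0 at 4 weeks and 0 to 3 for changes of the PH effect. The sign turned for Odc1 in X4 (-0.011) and S20 (-0.0079) against C0 replicates 1 to 3, likewise with groups reduced to replicates 1 to 3, and in C4 (0.0929) against C0 replicates 7 to 9. With the replicate number as a block there were 21 calls after PH against C0, 6 between PH and sham and 3 for changes of the PH effect, and 43 of 52 calls held. Single numbers did not pair the livers: of 95 pairs, 25 had correlated deviations above 0.1 (-0.19 to 0.30, median 0.04), and in 0 of 25 comparisons did all. The causes of these shifts were not tested. Depth limits Sms most.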
